A study of Mus musculus with 16 samples.

Results

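The libraries compared here are those of oil-injected female mice, 4 from Esr1cKO mice (S4, S7, S12 and S14) and 3 from wild-type mice (S1, S5 and S10), and they were chosen by the strain and injection that their labels give. They are 7 of the 16 libraries of the study, which also holds 5 wild-type and 4 Esr1cKO libraries from tamoxifen-injected mice, and they hold 21482 of its 55675 kept cells. Each library came from the hypothalamus and preoptic area of 1 mouse on a CD-1;129P2 mixed background and was made by Drop-seq, which captures single cells in droplets with barcoded beads and counts transcripts by unique molecular identifiers (UMIs). Esr1cKO mice carried a floxed Esr1 allele and a Cre transgene under the control of Nkx2-1, while the mice labelled wild-type were littermates without Cre, so that the groups differ by the transgene as well as by the deletion it directs. All were injected under the skin once a day for 4 weeks with corn oil containing ethanol, starting as young adults. Mice of all groups of strain and injection were processed in parallel, 4 on each day. The comparison asks what the loss of Esr1 in the Nkx2-1 lineage alone, with no drug, does to the transcriptome of this tissue.

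Esr1 encodes estrogen receptor alpha, a nuclear receptor that binds DNA when occupied by estradiol and raises or lowers transcription of its target genes. In the hypothalamus it is expressed by scattered groups of neurons in the preoptic area, the ventromedial nucleus and the arcuate nucleus. Arcuate neurons that make kisspeptin, neurokinin B and dynorphin pass estradiol feedback on to the neurons that release gonadotropin-releasing hormone, and Tac2, the neurokinin B precursor, is a textbook transcript that estradiol lowers there. Nkx2-1 is a homeodomain factor that specifies the ventral hypothalamus, so its Cre driver reaches the ventromedial and arcuate nuclei as well as ventral glia and ependyma.

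A barcode was kept as a cell if its gene count lay above 200 and below 4000 and mitochondrial genes held less than 15% of its UMIs. The wild-type libraries then held 1746 (S1), 3258 (S5) and 3216 (S10) cells, and the Esr1cKO libraries held 3067 (S4), 2730 (S7), 4209 (S12) and 3256 (S14). Kept UMIs per oil library ran from 1717573 in S1 to 5158552 in S12. The 9 main cell types of the tissue separated by their markers, with all 12 listed neuronal markers detected in the neuron cluster and all 12 listed astrocyte markers in the astrocyte cluster. A small cluster of 105 oil cells led by pituitary genes such as Tshb and Cga rested on 3 of 9 markers and is called pituitary-like; its genes were not tested. Levels are given as CPM, the UMIs of a gene per 1000000 UMIs of a library or of a cell type within it, in the order S1, S5, S10 for wild-type and S4, S7, S12, S14 for Esr1cKO. Fold changes are log2 of Esr1cKO over wild-type from edgeR's quasi-likelihood test on UMIs summed per library, a call is an adjusted p under 0.05, and in whole libraries fewer cells of a type and less RNA per cell cannot be told apart.

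Several libraries stood apart from the rest of their group. In wild-type S10, only 10.2% of UMIs fell on genes whose introns exceed 100000 bp, against 16.4% to 20.1% in the other 6 oil libraries, and the tamoxifen library S11 had a like share of 10.6%. S12, although labelled female, held 0.58 CPM of Xist, the RNA that silences an X chromosome in females, whereas the other 6 oil libraries held 257 to 321 CPM. The same library had the highest level of the Y-linked gene Ddx3y, at 17.1 CPM against 1.06 to 9.9 CPM. The Y-linked genes Eif2s3y (4.65 CPM) and Kdm5d (5.82 CPM) were also highest in S12 among the oil libraries. Uty, another Y-linked gene, did not set S12 apart, at 18.0 CPM there, 26.2 CPM in S1 and 17.9 CPM in S4. In S14, 363 of 3256 cells (11.2%) carried a barcode that also occurred in another library, mostly in the tamoxifen libraries S13 (352), S15 (303) and S16 (338), against 0.228% to 1.72% in the other oil libraries, and 9.21% of its kept UMIs were mitochondrial, the highest share of the oil libraries. S13 to S16 shared 303 to 359 barcodes per pair, and since S14 is their only oil library, no comparison under oil is possible within them. Results are given with and without S10 and S12 where a value rests on them.

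**Figure D1:**
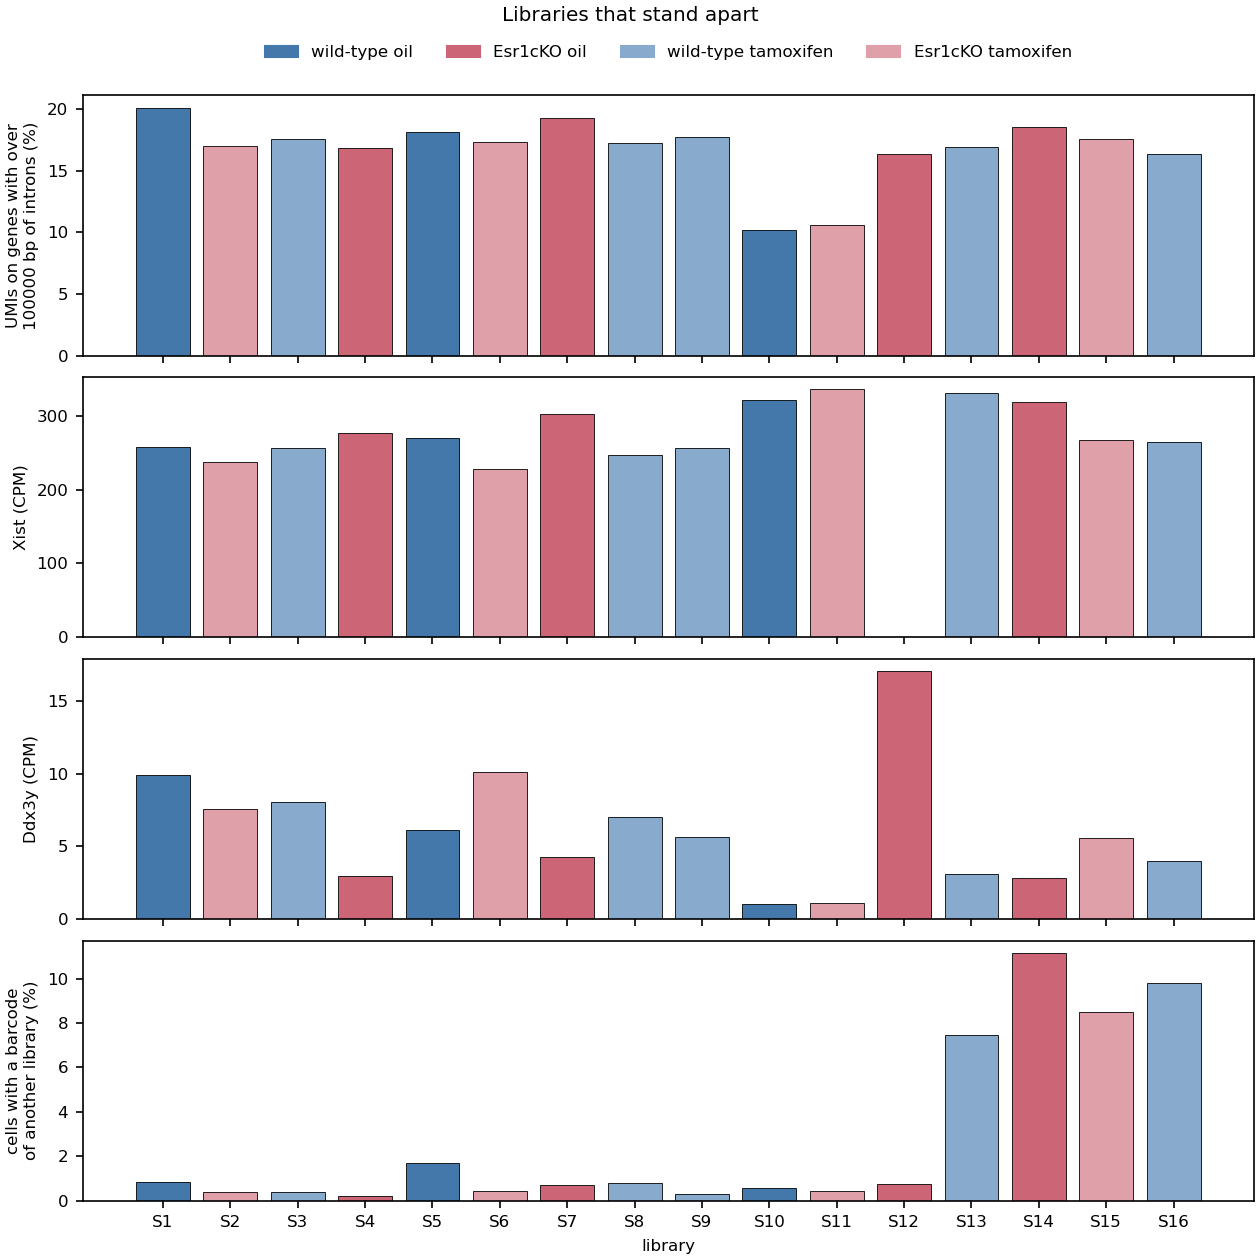
Each bar is 1 of the 16 libraries, coloured by group; the panels show, from top to bottom, the percent of UMIs on genes with more than 100000 bp of introns, the CPM of Xist and of Ddx3y, and the percent of cells whose barcode occurs in another library. S10 and S11 are low in the top panel at 10.2% and 10.6%, S12 has almost no Xist at 0.58 CPM, and S14 has the largest share of shared barcodes at 11.2%.

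Esr1 transcripts did not separate the genotypes in these libraries. In whole libraries Esr1 (chr10:4611593-5005614, plus strand, mm10) was at 90.8, 41.7 and 16.4 CPM in wild-type and at 33.2, 38.2, 36.3 and 34.8 CPM in Esr1cKO mice. All 4 Esr1cKO values lay inside the wild-type range, which was set by a high S1 and a low S10, and the log2 fold change was -0.34 ± 0.47 (SE; adjusted p = 0.971, edgeR). Esr1 is itself among the genes whose introns exceed 100000 bp, the class that is low in S10. Whether a transcript without the floxed exon is still counted is not given in the sources used here. The level therefore does not check the deletion. By staining, the study found the receptor protein lost in parts of the hypothalamus and preoptic area of Esr1cKO mice. Its own test of Esr1 transcripts found no significant drop.

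Neurons with a counted transcript of the driver gene Nkx2-1 were examined separately. Among neurons with at least 1 Nkx2-1 UMI, 16 to 57 per library, Esr1 was at 47.2, 138 and 28.4 CPM in wild-type and 90.7, 59.6, 30 and 79.5 CPM in Esr1cKO libraries. These values overlapped completely and rest on 3 to 17 Esr1 UMIs per library, with means of 71.1 ± 58.4 (SD, n = 3) and 64.9 ± 26.6 CPM (SD, n = 4; exact two-sided permutation test over 35 splits, p = 0.886, smallest possible 0.0286). In neurons without an Nkx2-1 UMI the means were 58.8 ± 28.2 and 47.8 ± 8.26 CPM (p = 0.657, same exact test). Neurons of the Nkx2-1 lineage can lack a counted Nkx2-1 UMI, so this split does not divide cells by Cre. A difference in Esr1 of the size of this spread was not detectable at this depth. In cells other than neurons, Esr1 was seen in 6.86% of S1 cells and 0.649% of S10 cells, both wild-type, so part of the wild-type range lies outside neurons.

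Nkx2-1 itself (chr12:56531958-56536908, minus strand) was at 27.9, 15.8 and 19.5 CPM in wild-type and 15.3, 11.1, 21.3 and 9.86 CPM in Esr1cKO libraries, a difference of -0.46 ± 0.33 (adjusted p = 0.918, edgeR) with overlapping groups. The driver is a transgene made from a bacterial artificial chromosome. Of a list of 10 genes at the Nkx2-1 locus, Nkx2-1 itself among them, 7 were tested. Mbip, the one with the smallest p, was at 41.3, 45.5 and 29.0 CPM in wild-type and 60.3, 46.0, 50.2 and 46.4 CPM in Esr1cKO libraries (log2 0.47 ± 0.20; adjusted p = 0.832, edgeR). The groups did not overlap, though S5 and S7 were nearly equal, and without S10 the median of the list moved from 0.34 to 0.06.

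In whole libraries, 0 genes of 16626 tested (0%) passed edgeR's adjusted threshold, and 965 (5.8%) had an unadjusted p under 0.05, with 488 (2.94%) higher and 477 (2.87%) lower in Esr1cKO mice. DESeq2 called 1 gene (0.00601%), Fmo2. The CPM of 965 genes (5.8%) did not overlap between the groups, 319 (1.92%) higher and 646 (3.89%) lower in Esr1cKO mice.

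Fmo2, a flavin-containing monooxygenase (chr1:162874317-162898726, minus strand), had the smallest p in whole libraries. It was at 8.73, 11.96 and 15.6 CPM in wild-type and at 32.2, 35.2, 32.2 and 27.5 CPM in Esr1cKO libraries. Every Esr1cKO library lay above every wild-type library (log2 fold change 1.41 ± 0.26, adjusted p = 0.832 by edgeR and 0.0104 by DESeq2). The difference was 1.68 without S10 and 1.42 without S12. Kctd3, Zfp948 and the cytochrome P450 gene Cyp2j12 were also among the 10 genes with the smallest p and higher in all 4 Esr1cKO libraries, by 0.77 ± 0.16, 0.61 ± 0.14 and 1.12 ± 0.27 on the log2 scale. The other 6 of the 10 were lower in every Esr1cKO library: the adhesion receptor gene Bai1 by -0.58 ± 0.14, Fam181a by -1.12 ± 0.27, Aurkaip1 by -0.59 ± 0.14, Snn by -0.54 ± 0.13, Dtx3 by -0.45 ± 0.11 and Tst, a mitochondrial sulfurtransferase gene, by -1.09 ± 0.27. All 10 had an adjusted p of 0.832 by edgeR.

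In neurons, 284 of 12448 genes (2.28%) were higher in every Esr1cKO library than in any wild-type library, and the genes named here as higher without overlap are among them. Of the 12448 genes tested in neurons none was called under oil and 580 (4.66%) had an unadjusted p under 0.05. The smallest p was that of Nov, also named Ccn3 (chr15:54745910-54753762, RefSeq, GRCm38), which encodes a secreted matricellular protein of the CCN family. Nov was at 3.27, 10.3 and 10.3 CPM in wild-type neurons and at 56.2, 45.1, 45.1 and 43.0 CPM in Esr1cKO neurons. Every Esr1cKO library lay well above every wild-type library (log2 fold change 2.50 ± 0.46, adjusted p = 0.547 by edgeR and 0.00333 by DESeq2). It was 2.69 without S10 and 2.52 without S12.

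The tamoxifen libraries, which share no sample with the oil libraries, gave the same direction for Nov. There it ran from 1.99 to 10.4 CPM in 5 wild-type libraries and from 28.5 to 103 CPM in 4 Esr1cKO libraries (log2 fold change 3.69 ± 0.38, adjusted p = 0.000249, edgeR). Nov was the only neuronal gene called under tamoxifen (1 of 12448, 0.00803%). Over all 16 libraries, no wild-type value reached the lowest Esr1cKO value, and the difference between the genotype effects under oil and tamoxifen was -1.19 ± 0.64 (adjusted p = 0.939, edgeR).

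Tac2 (chr10:127724478-127731768, plus strand), the precursor of neurokinin B, is a member of the estrogen-responsive list and was also higher in every Esr1cKO library. In neurons it was at 84.9, 74.4 and 124 CPM in wild-type and at 732, 381, 647 and 226 CPM in Esr1cKO libraries. The groups did not overlap, but the Esr1cKO libraries were widely spread, with S14 lowest, and the log2 fold change of 2.42 ± 0.64 had an unadjusted p of 0.00142 and an adjusted p that rounds to 1 (edgeR). In the tamoxifen libraries Tac2 ran from 91.3 to 434 CPM in wild-type and from 192 to 1625 CPM in Esr1cKO neurons (log2 2.32 ± 0.51; adjusted p = 0.404, edgeR), with overlap between the groups.

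Socs2 and Npy2r, named after their values were seen, were higher in Esr1cKO neurons under both injections. Socs2, a feedback inhibitor of cytokine receptors that include those of growth hormone and prolactin, was at 29.4, 26.5 and 21.5 CPM in wild-type and 82.3, 61.4, 65.2 and 47.1 CPM in Esr1cKO neurons (log2 1.36 ± 0.31; adjusted p = 0.968, edgeR). Npy2r, the Y2 receptor for neuropeptide Y, was at 19.6, 22.2 and 36.9 CPM in wild-type and 68.5, 37.6, 66.3 and 55.2 CPM in Esr1cKO neurons (log2 1.14; adjusted p that rounds to 1, edgeR). Both were higher in all 4 Esr1cKO libraries under oil. Under tamoxifen the lowest Esr1cKO library also lay above the highest wild-type library for both, at 45.1 against 42.5 CPM for Socs2 and 45.2 against 32.1 CPM for Npy2r. When the genotype difference was averaged over oil and tamoxifen, a contrast added after the data were seen, edgeR called 2 of 12448 neuronal genes (0.0161%), Nov (adjusted p = 0.000102) and Socs2 (adjusted p = 0.0419), while Npy2r had an adjusted p of 0.0546.

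**Figure D2:**
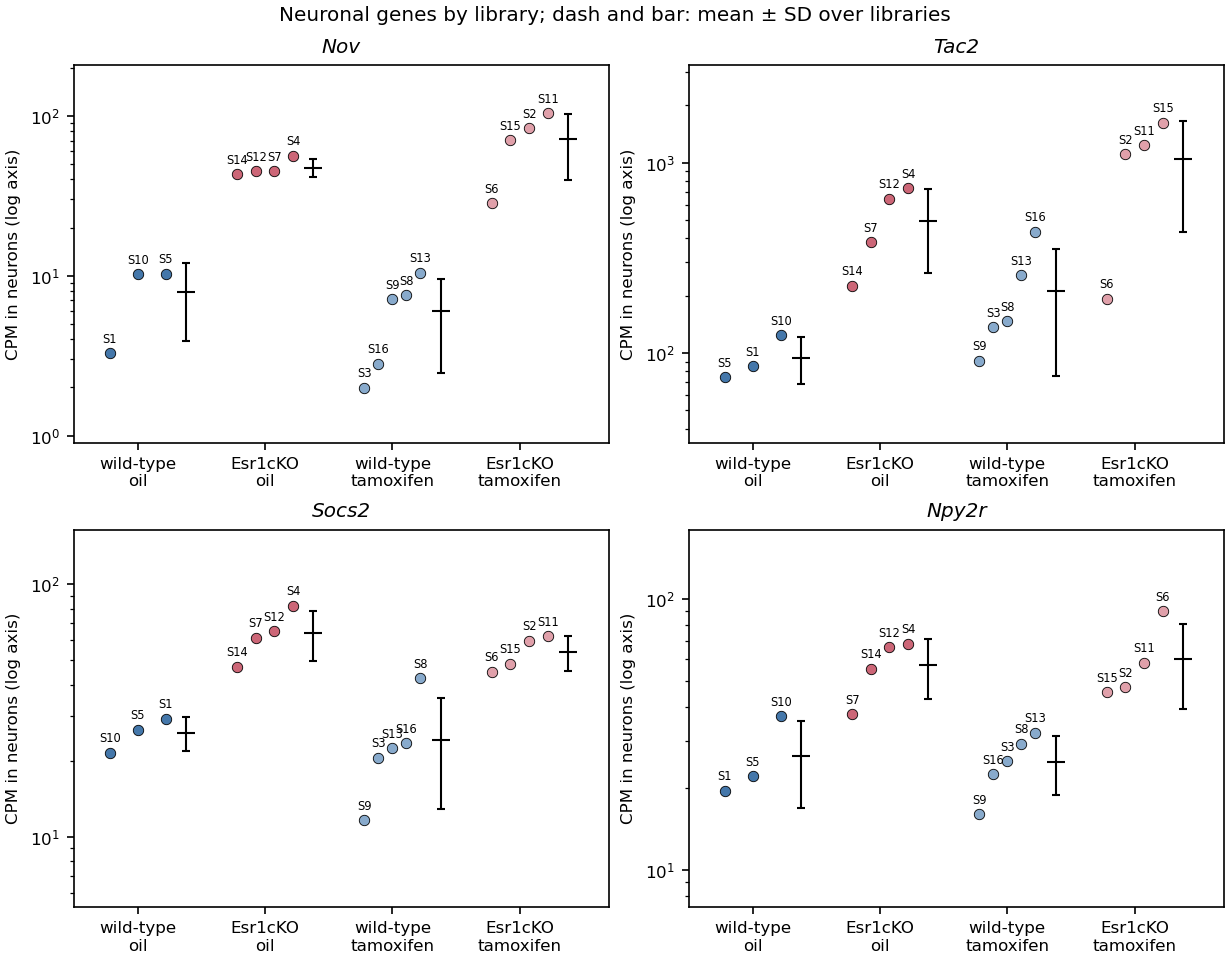
Each point is the CPM of a gene in the neurons of 1 library, on a log axis, for the 4 groups of strain and injection; the dash and bar are the mean ± SD over libraries (n = 3, 4, 5 and 4). Nov is at 3.27 to 10.3 CPM in wild-type and 43.0 to 56.2 CPM in Esr1cKO oil libraries, and Tac2, Socs2 and Npy2r are also higher in every Esr1cKO oil library than in any wild-type oil library.

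The number of neurons behind these values was small. A Nov UMI was present in 19 of 1290 wild-type and 70 of 2396 Esr1cKO neurons, and a Tac2 UMI in 41 and 135 neurons. In astrocytes, which are not known to make neurokinin B, a Tac2 UMI occurred in 3 of 2369 wild-type and 15 of 2698 Esr1cKO cells, at a median depth of 514 UMIs per cell against 1554 in neurons. After each neuron was thinned to 1000 UMIs, leaving out the shallower ones, Tac2 was seen in 1.07%, 2.39% and 1.42% of wild-type neurons and in 5.19%, 3.7%, 6.58% and 2.55% of Esr1cKO neurons. These thinned shares did not overlap, although S14 and S5 were close. Before thinning, the shares were 1.81%, 4.84% and 2.27% in wild-type and 6.06%, 3.41%, 7.90% and 3.11% in Esr1cKO libraries, so that wild-type S5 lay above S7 and S14. The thinned share for Nov was 0%, 1.19% and 1.42% in wild-type and 3.07%, 1.24%, 1.65% and 1.79% in Esr1cKO libraries, so these groups overlapped.

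Single neurons rich in these transcripts were counted as well. The neuron with the most Tac2 held 34, 23 and 62 UMIs in the wild-type libraries and 160, 130, 291 and 115 in the Esr1cKO libraries, with no overlap. Neurons with at least 5 Tac2 UMIs numbered 2, 5 and 6 in wild-type and 15, 6, 23 and 5 in Esr1cKO libraries, with overlap, since S14 had as many as S5 and fewer than S10. Neurons with at least 5 Nov UMIs numbered 0 in all 3 wild-type libraries and 6, 2, 4 and 4 in Esr1cKO libraries, and 27 Esr1cKO neurons against 1 wild-type neuron held UMIs of both Nov and Tac2. Esr1 was detected in 25 of 135 Esr1cKO and 11 of 41 wild-type neurons with Tac2. Of all Nov UMIs, fibroblasts held 75% in wild-type and 51.9% in Esr1cKO libraries, and neurons 11.3% and 39.2%.

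The list of 21 estrogen-responsive genes of the hypothalamus had 18 members tested in neurons, of which 5 had an unadjusted p under 0.05, all higher in Esr1cKO mice, and none was called. The list's median log2 fold change was 0.40, against 0.03 over all genes tested in neurons, and 308 of the 12448 (2.47%) were higher at this unadjusted level. The list's median and counts take no account of whether estradiol raises or lowers a member, so they have no expected side. Prlr, the prolactin receptor, was at 65.3, 62.4 and 123 CPM in wild-type and 147, 169, 141 and 152 CPM in Esr1cKO neurons (log2 0.89 ± 0.28; adjusted p that rounds to 1, edgeR), without overlap. Greb1, a gene that estrogen receptor alpha is known to induce, was lower in every Esr1cKO library, at 6.52, 7.52, 8.15 and 8.93 CPM against 16.3, 10.3 and 15.4 CPM (log2 -0.77 ± 0.45, adjusted p that rounds to 1, edgeR). In neurons, 383 of 12448 genes (3.08%) were lower without overlap in this way. The neurons of a library held 612545 (S1) to 1840608 (S12) UMIs, so Greb1 rests on few UMIs. Pgr, the progesterone receptor and another induced gene, was at 32.7, 54.7 and 7.18 CPM in wild-type and 23.6, 36.4, 16.8 and 27.6 CPM in Esr1cKO neurons, with full overlap.

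In whole libraries 17 of the 21 were tested and had a median log2 fold change of 0.38, which was 0.58 without S10 and 0.25 without S12. Tac2, Prlr and Socs2 were the members with the smallest p. Tac2 was at 30.9, 23.7 and 34.3 CPM in wild-type and 301, 102, 242 and 73.7 CPM in Esr1cKO libraries (log2 2.66 ± 0.73; adjusted p = 0.832, edgeR), and neurons held 94.2% of its UMIs in wild-type and 97.1% in Esr1cKO libraries. Esr2 and Gper1, the other estrogen receptor genes, differed by 0.04 ± 0.72 and 0.02 ± 0.50, each with overlapping groups.

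Of 40 neuropeptide precursor genes, 34 were tested in whole libraries, and 6 had an unadjusted p under 0.05, all higher in Esr1cKO mice, against 2.94% of all genes. The list's median was 0.33 and was 0.67 without S10. Tac2 is on this list and on the estrogen-responsive list, so the counts of both lists are not separate results. Grp, which encodes gastrin-releasing peptide, was at 4.08, 6.87 and 5.54 CPM in wild-type and 25.2, 18.9, 15.7 and 9.08 CPM in Esr1cKO libraries (log2 1.65 ± 0.47), and Penk, the enkephalin precursor, was at 41.3, 46.6 and 73.9 against 87.2, 93.9, 104 and 78.9 CPM (log2 0.79 ± 0.27). Neither list of values overlapped, and both genes had an adjusted p of 0.832 (edgeR). Under tamoxifen the Grp difference was 0.31 and that of Penk 0.67. Pomc, the precursor of the melanocortins, was spread too widely to compare, at 69.3, 26.0 and 19.5 CPM in wild-type and 265, 18.9, 91.5 and 29.1 CPM in Esr1cKO libraries.

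Transcription factors that mark hypothalamic regions numbered 49 on the list, and 42 were tested in whole libraries, with a median of 0.10. At an unadjusted p under 0.05, 0 were higher and 1 was lower. Over all genes these shares were 2.94% and 2.87%, so the counts do not set the list apart. The lower gene was Foxb1, a mammillary factor, at 76.3, 35.1 and 31.9 CPM in wild-type and 18.2, 26.4, 16.3 and 21.8 CPM in Esr1cKO libraries (log2 -1.10 ± 0.37; adjusted p = 0.832, edgeR). Among 15 genes listed for forebrain neurons outside the hypothalamus, 12 were tested with a median of 0.49. The summed level of the list was 150 to 158 CPM in wild-type and 166 to 278 CPM in Esr1cKO libraries, without overlap. Penk, given above as a neuropeptide gene, is also on this list and adds more to every Esr1cKO sum than to any wild-type sum. Without Penk the lowest Esr1cKO sum would lie below that of wild-type S1, so the lack of overlap rests on Penk. The part of these forebrain genes in the other neuronal differences was not tested.

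The shares of astrocytes and oligodendrocytes lay apart between the groups. The exact test used for them has too few splits for 1 type alone to reach an adjusted p under 0.05 over 10 types. Astrocytes made up 27.7%, 29.0% and 29.3% of wild-type cells and 13.96%, 19.0%, 26.4% and 19.6% of Esr1cKO cells, a mean difference of -8.90 percentage points. Oligodendrocytes made up 12.9%, 14.1% and 13.2% of wild-type cells and 25.6%, 24.2%, 14.99% and 21.0% of Esr1cKO cells, a mean difference of 8.06 points. Neither type overlapped between the groups, but S12 came close to the wild-type libraries in both, and the exact two-sided permutation test gave p = 0.0571 for each (adjusted over 10 types, 0.286; smallest possible p, 0.0286). Under tamoxifen the mean share of astrocytes was 20.7% in Esr1cKO and 27.2% in wild-type libraries. That of oligodendrocytes was 16.6% and 15.6%, and both types overlapped between the genotypes there.

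Ependymal cells were 6.82%, 4.67% and 10.9% of wild-type and 2.35%, 3.63%, 6.49% and 3.84% of Esr1cKO cells, with overlap (exact permutation test, p = 0.114). The share of neurons was 19.0%, 15.9% and 13.7% in wild-type and 22.1%, 13.96%, 19.6% and 15.8% in Esr1cKO libraries, and the 7 types other than astrocytes, oligodendrocytes and ependymal cells had p of at least 0.429 by the same exact test. Shares of one library sum to 100%, so the differences in astrocytes and oligodendrocytes are not independent of each other.

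**Figure D3:**
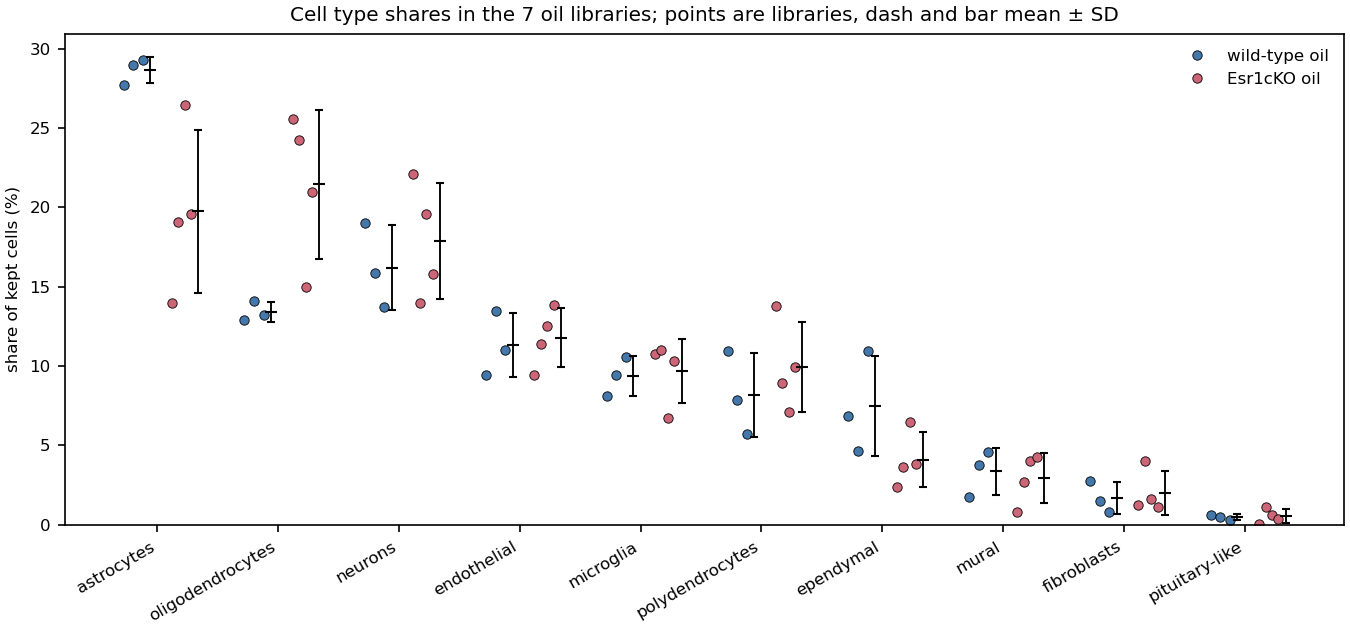
Points are the percent of kept cells of each type in each of the 3 wild-type and 4 Esr1cKO oil libraries, with the mean ± SD. Astrocytes lie at 27.7% to 29.3% in wild-type and 13.96% to 26.4% in Esr1cKO libraries and oligodendrocytes at 12.9% to 14.1% and 14.99% to 25.6%, while the other types overlap.

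In whole libraries the glial gene lists differed in the same direction as these shares. Of 20 myelin genes, 13 were higher at an unadjusted p under 0.05 and 7 did not overlap, against 2.94% and 1.92% of all genes tested, and the median log2 fold change was 0.51. Tspan2, a tetraspanin of oligodendrocytes, was at 171, 262 and 318 CPM in wild-type and 375, 411, 328 and 445 CPM in Esr1cKO libraries (log2 0.69 ± 0.23; adjusted p = 0.832, edgeR). Of 20 astrocyte genes, 11 were lower at an unadjusted p under 0.05, against 2.87% of all genes, and the median was -0.61. Ntsr2, a neurotensin receptor of astrocytes, was at 335, 403 and 373 CPM in wild-type and 145, 194, 290 and 147 CPM in Esr1cKO libraries (log2 -0.88 ± 0.22; adjusted p = 0.832, edgeR).

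Within the cell types both list medians were smaller in size, and the part of the cell shares in the list differences was not tested. Over oligodendrocytes alone the myelin median was 0.07 and none of the 20 genes had an unadjusted p under 0.05, against 5.67% of all genes tested there, and over astrocytes alone the astrocyte median was -0.20 with 3 genes lower, against 2.26%. With both cell types left out of the sums, the medians were 0.20 for myelin and -0.35 for astrocyte genes. The myelin median was 0.62 without S10 and 0.65 without S12, and the astrocyte median -0.33 and -0.75.

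Each cell type was then tested by itself, and edgeR called no gene in any of the 9 types. Per type, 61 to 580 genes had an unadjusted p under 0.05, which was 3.68% to 6.16% of those tested. DESeq2 called 1 gene in neurons (0.00803%), Nov, and 1 in endothelial cells (0.0108%), Cldn5. In endothelial cells, where 483 of 9223 genes (5.24%) were at that level, the smallest p was that of Cldn5 (chr16:18776847-18778262, plus strand), which encodes claudin-5, the main tight junction protein of the blood-brain barrier. It was at 1239, 1201 and 1125 CPM in wild-type and 526, 574, 752 and 619 CPM in Esr1cKO endothelial cells. The wild-type libraries lay close together and all above the Esr1cKO libraries (log2 fold change -0.93 ± 0.18, adjusted p = 0.461 by edgeR and 0.00458 by DESeq2). Among all genes tested in endothelial cells, 278 (3.01%) were lower without overlap. The Cldn5 difference was -0.94 without S10 and -1.01 without S12, but it was -0.05 between genotypes under tamoxifen (adjusted p that rounds to 1, edgeR).

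Endothelial cells also held 82.6% and 86.6% of the Fmo2 UMIs of wild-type and Esr1cKO libraries. Within them Fmo2 was at 67.2, 73.6 and 110 CPM in wild-type and 349, 247, 223 and 152 CPM in Esr1cKO mice (log2 1.47 ± 0.37; adjusted p = 0.923, edgeR), and under tamoxifen the difference was -0.07. Of 20 vascular genes, 1 was higher and 2 were lower in endothelial cells at an unadjusted p under 0.05, against 2.5% and 2.73% of all genes tested there. The list, which holds Cldn5 but not Fmo2, had a median of -0.13 there.

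In glia the genes with the smallest p were lower in Esr1cKO mice. In astrocytes Vps37b, a subunit of an endosomal sorting complex, was at 59.7, 61.2 and 32.5 CPM in wild-type and 12.1, 23.2, 14.2 and 24.6 CPM in Esr1cKO libraries (log2 -1.44 ± 0.34; adjusted p = 0.995, edgeR). In oligodendrocytes the predicted gene Gm10704 was at 77.1, 51.8 and 46.3 CPM against 11.5, 26.8, 18.6 and 17.7 CPM (log2 -1.50 ± 0.27; adjusted p = 0.203, edgeR). In polydendrocytes, the precursors of oligodendrocytes, Aldoa, a glycolytic aldolase gene, was at 230, 222 and 304 CPM against 130, 124, 149 and 131 CPM (log2 -0.87 ± 0.19, adjusted p = 0.61, edgeR). Averaged over oil and tamoxifen, Gm10704 differed by -0.79 and Aldoa by -0.48, less in size than under oil alone. This average contains the oil values by which both genes were picked, so it is no separate check of them. Vps37b, Gm10704 and Aldoa were each without overlap between the groups under oil. They were picked by their p in the same libraries, so the lack of overlap adds no support. Of all genes tested, 5.07% in astrocytes, 6.56% in oligodendrocytes and 5.8% in polydendrocytes had no overlap in either direction.

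In ependymal cells the α-tubulin gene Tuba1c was at 563, 453 and 532 CPM in wild-type and 232, 326, 277 and 160 CPM in Esr1cKO libraries, a log2 fold change of -1.06 ± 0.23. Mural cells and fibroblasts had higher genes at the top. Psmd13, a proteasome subunit gene, was at 71.5, 169 and 73.6 CPM in wild-type and 327, 521, 299 and 318 CPM in Esr1cKO mural cells (log2 1.72 ± 0.46), and Rtn3, a reticulon of the endoplasmic reticulum, was at 51.2, 161 and 145 against 361, 331, 327 and 269 CPM in fibroblasts (log2 1.36 ± 0.38). These genes, too, were picked by their p and were without overlap between the groups, and their adjusted p was at least 0.957 (edgeR). No overlap in either direction was seen for 4.89% of all genes tested in ependymal cells, 5.43% in mural cells and 4.29% in fibroblasts. Tuba1c, Psmd13 and Rtn3 each differed by 0.15 or less in size between the genotypes under tamoxifen. Under oil, mural cells numbered 30, 122 and 148 in wild-type and 25, 73, 169 and 138 in Esr1cKO libraries. Fibroblasts numbered 48, 48 and 26 against 37, 110, 67 and 37. Psmd13 and Rtn3 thus rest on few cells in some libraries.

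**Figure D4:**
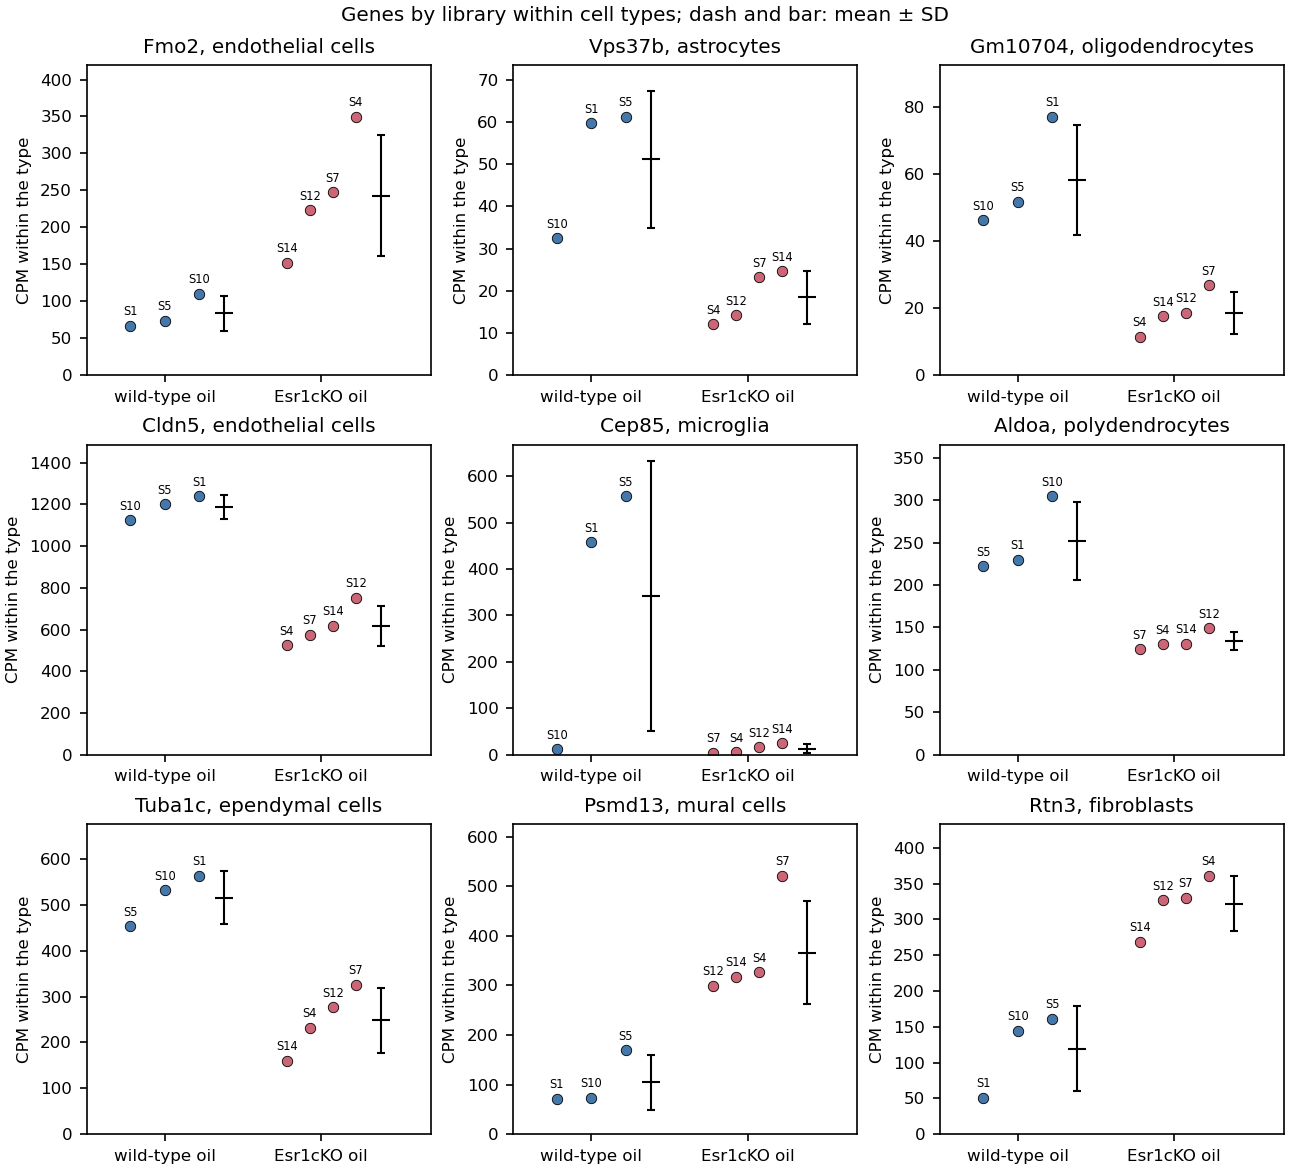
Each panel gives the CPM of 1 gene within 1 cell type for the 3 wild-type and 4 Esr1cKO oil libraries, with the mean ± SD. Fmo2, Psmd13 and Rtn3 are higher and Vps37b, Gm10704, Cldn5, Aldoa and Tuba1c lower in every Esr1cKO library, whereas Cep85 is high only in wild-type S1 and S5, at 458 and 556 CPM.

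In microglia the gene with the smallest p did not follow genotype across the libraries of the study. Cep85, a centrosomal protein gene (chr4:134129858-134187112, minus strand), was at 458, 556 and 11.3 CPM in wild-type and 4.85, 4.12, 16.5 and 24.2 CPM in Esr1cKO microglia (log2 -4.64 ± 1.0; adjusted p = 0.771, edgeR). The long non-coding RNA Gm26880 (chr4:146509094-146511764, minus strand), named after its values were seen, was at 187 and 200 CPM in S1 and S5 and at 0 in S10 and in the 4 Esr1cKO libraries. Without S10 edgeR called both of these genes in microglia (2 of 6331, 0.0316%). Among the 9 tamoxifen libraries, however, the Esr1cKO library S11 held 192 CPM of Cep85 and 64.1 CPM of Gm26880. The other 8, all 5 wild-type ones among them, held 5.05 to 31.6 and 0 to 11.8 CPM. Microglial genes as a list had a median of -0.19 within microglia, and none of the 20 had an unadjusted p under 0.05, against 6.16% of all genes tested there.

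Metabolic lists had medians under 0 in Esr1cKO libraries that shrank or turned without S10. Of 77 nuclear genes of oxidative phosphorylation, 65 had a log2 fold change under 0, against 46.3% of all genes, but the median was -0.10, 2 were lower at an unadjusted p under 0.05, against 2.87%, and without S10 the median was 0.05. Cox5a, a cytochrome oxidase subunit, was at 158, 109 and 115 CPM in wild-type and 101, 85.8, 80.3 and 57.6 CPM in Esr1cKO libraries (log2 -0.57 ± 0.24; adjusted p = 0.832, edgeR). Of 20 glycolytic genes, 5 were lower at an unadjusted p under 0.05, against 2.87% of all genes, with a median of -0.25 that was -0.09 without S10. Transcripts of the mitochondrial genome had a median of 0.03 and none of the 9 tested had an unadjusted p under 0.05.

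Interferon response and MHC class I genes were lower in 23 of 24 members, against 46.3% of all genes with a log2 fold change under 0, and 3 were at an unadjusted p under 0.05, against 2.87% of all genes. Their median was -0.30. Bst2, an antiviral membrane protein, was at 15.1, 11.2 and 15.04 CPM in wild-type and 4.97, 7.83, 10.9 and 6.23 CPM in Esr1cKO libraries (log2 -0.81 ± 0.29; adjusted p = 0.832, edgeR), without overlap but with S12 and S5 nearly equal. Without S10 the list's median was -0.14. Over 28 immediate early genes the median was 0.08 and 1, the orphan receptor gene Nr4a3, was higher at an unadjusted p under 0.05 (log2 0.71 ± 0.20, adjusted p = 0.832, edgeR). Over 20 heat shock and chaperone genes the median was 0.08 with 1 higher at that level, Dnajb4. Among all genes tested, 2.94% were higher at that level.

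Lists for cells that the block could carry in were checked too. Ependymal and tanycyte genes had a median of -0.53, red blood cell genes -0.11, choroid plexus genes -0.02, microglial genes -0.21, vascular genes -0.01, cholesterol synthesis genes -0.04 and pituitary genes 0.19. Neutrophil genes had a median of -2.37, which rests on wild-type S5 alone: S100a8 was at 70.7 CPM there and at 0 to 8.15 CPM in the other 6 libraries, and without S5 the median was 0.26. Their part in other results was not tested.

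**Figure D5:**
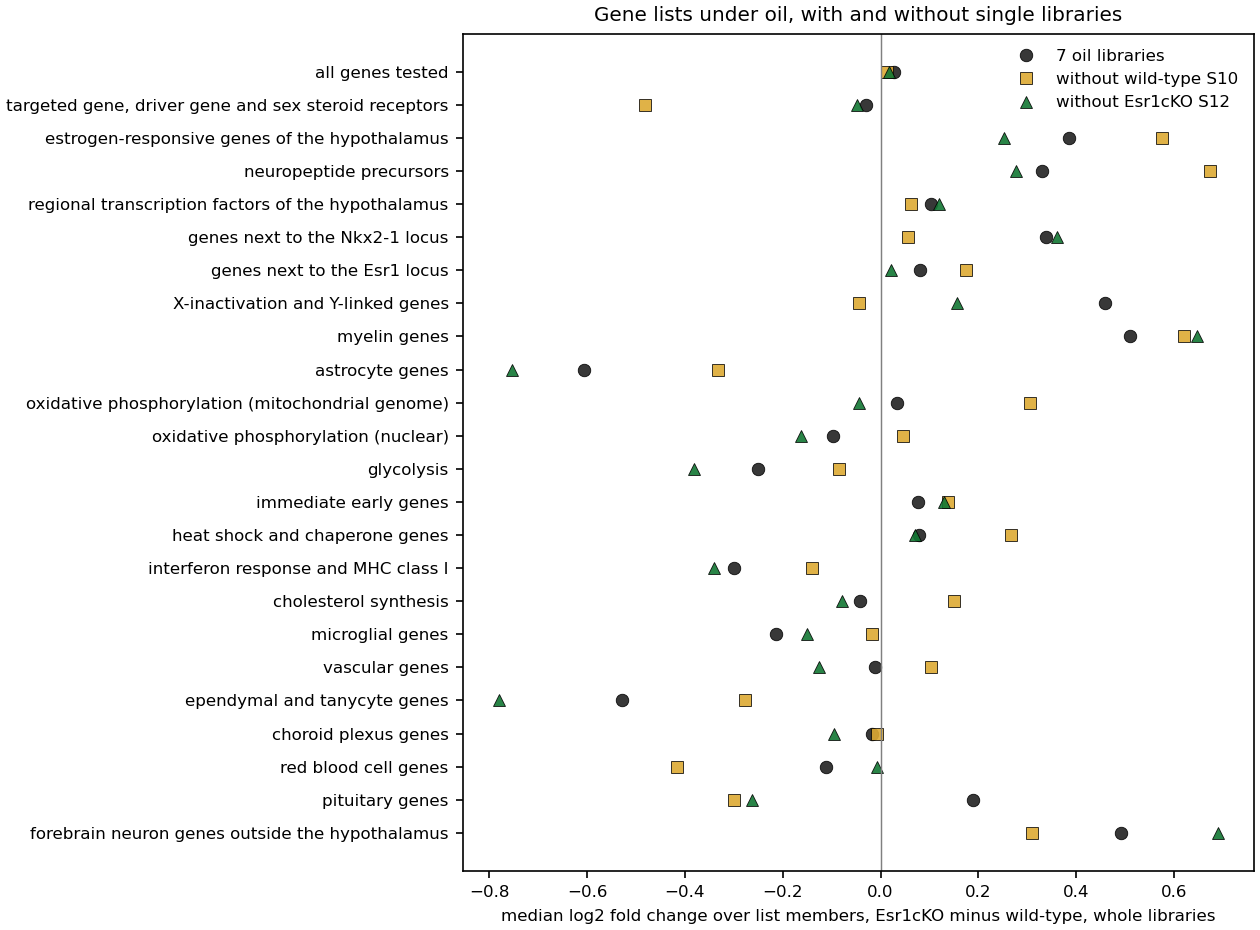
Each row is a gene list and each marker the median log2 fold change of its tested members in whole libraries, Esr1cKO minus wild-type, with all 7 oil libraries, without wild-type S10 and without Esr1cKO S12; the neutrophil list, at -2.37, is left off. Myelin genes (0.51) and astrocyte genes (-0.61) keep their side under all 3 settings, whereas nuclear oxidative phosphorylation crosses 0 without S10 (from -0.10 to 0.05).

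Intron length also moved with the comparison. Over 2219 tested genes with more than 100000 bp of introns the median log2 fold change was 0.19, with 105 higher and 9 lower at an unadjusted p under 0.05. Over 591 genes without introns it was -0.16, with 2 higher and 53 lower. Among all genes tested, 2.94% were higher and 2.87% lower at that level. These counts were not repeated without S10. On the scale of differences between group means of log2 CPM, the long-intron median of 0.23 turned to -0.19 when S10 was left out. Esr1 and Prlr belong to the long-intron class, and the part of intron length in the other differences was not tested.

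The genotype difference under oil was finally set against that under tamoxifen. edgeR called 0 genes in whole libraries for the difference between both effects, with 708 (4.26%) at an unadjusted p under 0.05 (DESeq2 called 1, 0.00601%). For the genotype difference under tamoxifen edgeR also called 0 genes, with 451 (2.71%) at an unadjusted p under 0.05. Side by side, Tac2 differed by 2.66 under oil and 2.58 under tamoxifen in whole libraries, Socs2 by 0.62 and 0.61, and Ntsr2 by -0.88 and -0.72. The astrocyte list's median was -0.61 under oil and -0.40 under tamoxifen, while that of myelin genes was 0.51 and -0.09. Fmo2 differed by 1.41 and 0.28, and Kctd3 by 0.77 and 0.03.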

How the data were processed

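Drop-seq libraries of 16 mice were analysed, 7 of them oil-injected. Per the labels, the authors aligned reads with STAR 2.6 to mm10 and worked in Seurat, and the deposited tables hold UMI counts of genes by barcodes; how reads over introns were counted is not given in the sources used here. As in the study, a barcode was kept if its gene count lay above 200 and below 4000 and mitochondrial genes held under 15% of its UMIs; every table column belonged to a sample of the series (0 others). Doublets were not removed.

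UMIs were summed per library and per cell type (at least 10 cells) and tested with edgeR 4.0.16 (quasi-likelihood, TMM, filterByExpr, Benjamini-Hochberg, 2-sided) in 1 fit of the 4 groups, so that the tamoxifen libraries contribute to the spread. The code was tested on simulated data. Cells were clustered with Seurat 5.3.0 (2000 variable genes, 30 dimensions, 20 principal components, resolution 0.05) and named from a marker list. DESeq2 1.42.0, other filters, scalings and cells, and each library left out in turn were the alternatives. Shares and Esr1 in neurons were tested with exact permutations (scipy 1.17.1). Positions and intron lengths came from GENCODE vM21, which named 93.0% of the 28683 genes listed.

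Named genes were, in whole libraries, the 10 with the smallest p, since none passed the threshold; in each cell type, the one with the smallest p; in each list, the 3 members with the smallest p; and Esr1, Nkx2-1, Esr2, Gper1, Pgr, Greb1, Xist and Ddx3y; some genes that these rules name are not reported here. The libraries, lists and tests were chosen with earlier results of these data known. A ± marks either an SE of a log2 fold change or, where stated, the SD over libraries. This SE was derived as the size of the log2 fold change divided by the square root of the F statistic of edgeR's test. Each mouse gave 1 library.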

Additional observations from a re-analysis of the deposited data

Results flagged for a closer look

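Groups of 4 libraries were checked for 1 library far from the other 3, and 10 of 118 groups met the criterion, where chance alone gives about 5%. In whole Esr1cKO libraries, S12 stood apart for Xist (0.582 CPM), Ddx3y (17.1 CPM) and mt-Nd3, a mitochondrial subunit of complex I (122 CPM), S4 for the chaperone gene Hspd1 (317 CPM), and S7 for the red cell anion exchanger gene Slc4a1 (1.63 CPM) and the neutrophil gene S100a8 (8.15 CPM). Within cell types, S4 had the highest Nov in neurons (56.2 CPM) and the lowest Esr1 in cells other than neurons (21.8 CPM), and S7 the highest Psmd13 in mural cells (521 CPM) and the largest share of fibroblasts (4.03%).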

How the results depend on the processing

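The labels name neither pairs nor days of processing. The study processed 4 mice a day with all groups in parallel, and the successive libraries S13 to S16 have barcodes in common. S1 to S4, S5 to S8 and S9 to S12 each hold 1 library of each group, whereas S13 to S16 hold no wild-type oil library. Whether these fours are the days is not given, and the main fit has no term for them. With successive fours of library numbers as a block, edgeR again called 0 genes under oil in whole libraries and in each cell type. The alternatives without S12, without S10 and S12 together, with barcodes found in 1 library only, and the average over both injections were chosen after seeing the data. Of the values of named genes under the alternatives, 1744 kept their direction and their side of the threshold, 8 passed the threshold in the same direction and 45 changed sign, none of them with an adjusted p under 0.05.

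The count of called genes, 0 by edgeR in whole libraries and in each cell type, was 1 by DESeq2 in whole libraries (Fmo2), in neurons (Nov), in endothelial cells (Cldn5) and for the difference between injections. With no filter on low counts it was 2 in astrocytes, 12 in oligodendrocytes, 1 in neurons (Nov, adjusted p = 0.0195, edgeR), 11 in endothelial cells, 25 in microglia, 5 in polydendrocytes, 2 in ependymal cells, 1 in mural cells and 2 in fibroblasts. These were 0.004% (neurons) to 0.116% (microglia) of the genes tested in a type. In whole libraries, leaving out 1 oil library at a time gave 0 to 1 called gene, the 1 being Cep85 without S10, and leaving out S10 and S11 together gave 2, Cep85 and Gm26880. In microglia the range was 0 to 2 with 1 library left out, and the count was 3 without S10 and S11 and 2 without S10 and S12. The log2 fold change of Cep85 in microglia was then -5.25 without S10 (adjusted p = 0.0011, edgeR) and -5.39 without S10 and S12 (adjusted p = 0.0116, edgeR). Why these counts moved was not tested.

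Differences in shares that were small against their spread turned. With more than 500 genes per cell the difference was -0.892 percentage points for microglia, -0.0541 for polydendrocytes and -0.0242 for pituitary-like cells, and without S10 and S12 it was -0.16 for neurons and -0.0497 for pituitary-like cells. With 1 library left out the range was -0.421 to 1.58 points for endothelial cells, -0.298 to 1.33 for microglia, -1.24 to 0.288 for mural cells, -0.365 to 0.85 for fibroblasts and -0.124 to 0.22 for pituitary-like cells. The Esr1 difference ranged from -27.5 to 27.1 CPM in neurons with an Nkx2-1 UMI and from -20.8 to 5.15 CPM in the other neurons. The cause was not tested.

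Of the log2 fold changes that changed sign in whole libraries, those with 1 library left out ranged from -0.75 to 0.33 for Esr1, -1.38 to 0.17 for Slc4a1, -0.36 to 0.54 for Gper1, -0.62 to 0.54 for Pgr, -0.47 to 0.031 for Greb1, -0.77 to 0.83 for Hbb-bt, -4.69 to 0.45 for Camp, -4.64 to 0.069 for Ngp, -6.07 to 0.53 for S100a8, -0.52 to 0.44 for Esr2, -0.043 to 1.84 for Uty, -0.45 to 0.070 for mt-Co1, -0.28 to 0.037 for mt-Nd6, -0.57 to 0.98 for Ddx3y and -0.47 to 0.16 for Xist, and in neurons from -0.38 to 0.052 for Esr1. Esr2 was -0.016 by DESeq2, -0.52 without S10 and S11, -0.33 without S10 and S12 and -0.17 under 5% mitochondrial UMIs. Gper1 was -0.016 with the block, -0.16 above 500 genes, -0.044 over all deposited barcodes and -0.0059 without astrocytes and oligodendrocytes. Pgr was 0.22 with the block, 0.018 under 5% mitochondrial UMIs and 0.29 over all barcodes, where Pitx1 was 0.45 and Cga 0.11, and Rmnd1 was 0.063 under 5% mitochondrial UMIs. Without S10 and S11, Uty was -0.0063, mt-Co1 0.073 and mt-Nd6 0.040, and without S10 and S12, Kdm5d was -0.17, Uty -0.15, mt-Nd6 0.031, Xist 0.32 and Ddx3y -1.07. Depth limits Esr1 in neurons with an Nkx2-1 UMI, which rests on 3 to 17 Esr1 UMIs per library.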
